A study of Mus musculus with 5 samples.

Results

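Iron absorption and storage were followed through 8 genes in the epithelium of the mouse distal small intestine after small bowel resection or sham surgery. The genes were Cybrd1, Slc11a2, Slc40a1, Heph, Fth1, Ftl1, Tfrc and Hmox1. They were taken by symbol from the deposited gene table, which held all 8 among its 27998 rows. On GRCm38 with GENCODE M21 the genes, all protein coding, lie at chr1:45908068-45926523 (Slc40a1), chr2:71117923-71142926 (Cybrd1), chr7:45457944-45459884 (Ftl1), chr8:75093621-75100589 (Hmox1), chr15:100387898-100425072 (Slc11a2), chr16:32608920-32632794 (Tfrc), chr19:9980598-9985098 (Fth1) and chrX:96455359-96574485 (Heph).

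The study profiled single cells of ileum from C57BL/6 mice aged 8 to 12 weeks with droplet 3′ sequencing. There were 3 libraries from mice with sham surgery and 2 from mice with small bowel resection, and all 5 shared strain, tissue and age range. The labels give neither the time after surgery nor how many mice made up a library, so p-values below measure the spread between these libraries, which may be technical. The comparison asks how the ileum that remains after resection differs from ileum after a sham operation.

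Dietary iron enters the body through enterocytes of the villus. At the brush border a reductase (Cybrd1) turns ferric into ferrous iron and a transporter (Slc11a2, also called DMT1) carries it in. Inside the cell iron is stored in ferritin, which is built of heavy (Fth1) and light (Ftl1) chains, or leaves at the basolateral side through ferroportin (Slc40a1) with the help of the ferroxidase hephaestin (Heph). Heme oxygenase (Hmox1) frees iron from heme, and the transferrin receptor (Tfrc) takes up iron from plasma, above all in dividing cells. Several of the transcripts carry iron-responsive elements, hairpins bound by iron regulatory proteins when iron in the cell is low. A hairpin in the 5′ UTR then blocks translation and hairpins in the 3′ UTR stabilise the transcript.

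The hairpin sites found in 4 of the genes are printed because iron is known to control these transcripts through them. They were found in GENCODE M21 transcripts on GRCm38, the build that the submitters' processing notes name, on the transcript strand, as the letters CAGTGN of a 6-base loop between 2 stretches of 5 bases that pair with each other, with a C just before the first stretch. Capitals mark the loop, and each site is given 5′ to 3′ in transcript sense with 27 bases.
Fth1, 5′ UTR, chr19:9982733-9982759, + strand: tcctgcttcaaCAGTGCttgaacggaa
Ftl1, 5′ UTR, chr7:45459780-45459806, − strand: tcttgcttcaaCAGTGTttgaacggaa
Slc40a1, 5′ UTR, chr1:45925466-45925492, − strand: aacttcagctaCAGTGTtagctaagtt
Tfrc site 1, 3′ UTR, chr16:32631220-32631246, + strand: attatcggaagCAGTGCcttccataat
Tfrc site 2, 3′ UTR, chr16:32631599-32631625, + strand: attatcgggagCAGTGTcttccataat
Tfrc site 3, 3′ UTR, chr16:32631664-32631690, + strand: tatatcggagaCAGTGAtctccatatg
Tfrc site 4, 3′ UTR, chr16:32631711-32631737, + strand: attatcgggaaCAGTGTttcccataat
All complete coding transcripts of the 8 genes were searched. The same search over the longest such transcript of every gene matched 21 of 20699 genes in the 5′ UTR (0.102%) and 117 of 21583 in the 3′ UTR (0.542%). Tfrc was the only gene among the latter with 3 or more matches. The motif was not found in Cybrd1, Slc11a2, Heph or Hmox1. This says only that their annotated UTRs hold no site with these letters between 2 fully paired stretches. A site with an unpaired base in a stretch would have been missed, so the search does not show that these transcripts lack iron-responsive elements.

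The 5 libraries held 19404 cells and 126061000 counts of unique molecules (UMIs), with medians of 4541 to 6240 UMIs per cell. After filters and removal of 720 likely doublets, 18235 cells remained in 20 clusters, which markers named as enterocyte-like (11371 cells), immature enterocyte-like (3183), crypt progenitor-like (1671), Paneth-like (1028), goblet-like (508), T cell-like (453) and tuft-like (21, counted in the whole epithelium only). The iron genes and the related lists were left out of the clustering. Libraries stood apart from each other. Sham 1 and resection 1 shared almost no enterocyte-like cluster with the other 3 libraries: 98.2% of their enterocyte-like cells lay in clusters led by that pair, and 99.9% of those of sham 2, sham 3 and resection 2 lay in clusters led by those 3. The pair also had more mitochondrial counts (medians of 13.7% and 11.7% per cell against 7.24% to 9.19%), so changes are also given inside each of these 2 sets. Mature enterocyte-like cells sat in different clusters in almost every library. Most of sham 1 (668 of 693 cells) lay in a cluster led by Gm26870 and Epha2, most of sham 2 (1833 of 2327) in one led by H2-Aa and Cd74, and most of sham 3 (1345 of 1592) in one led by Ccl20 and Duoxa2. Resection 1 filled 3 clusters (945, 679 and 654 of 2324) led by Abcb1a, Apoa4 and Fgf15, and resection 2 filled 2 (2127 and 1707 of 4435) led by Fabp2 and Sis. The summed level of 10 enterocyte markers in the enterocyte-like class was 15852 to 32042 counts scaled to a common total (CPM) in the sham libraries and 39742 to 59669 in the resection libraries, and its part in the changes below was not tested. Macrophages, which also handle much iron, left little RNA in this class. Macrophage markers (6 of 9 detected, with C1qc, Adgre1 and Cd163 at 0) summed to 1.57 to 3.63 CPM in the sham and 2.14 to 2.72 in the resection libraries. Libraries shared 6 to 47 cell barcodes per pair, at most 1.5% of the smaller library.

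Each gene had its own place in the epithelium. Levels are given as CPM over all UMIs of a class in a library, as the mean ± SD of 5 libraries (n = 5). Classes were compared without a test because they share the libraries. CPM is a share of the UMIs of a class, not an amount per cell. Paneth-like cells had a median of 9926 UMIs per cell against 4648 in enterocyte-like cells. A lower CPM in Paneth-like cells is therefore a lower share, and the gap per cell is smaller.

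**Figure D1:**
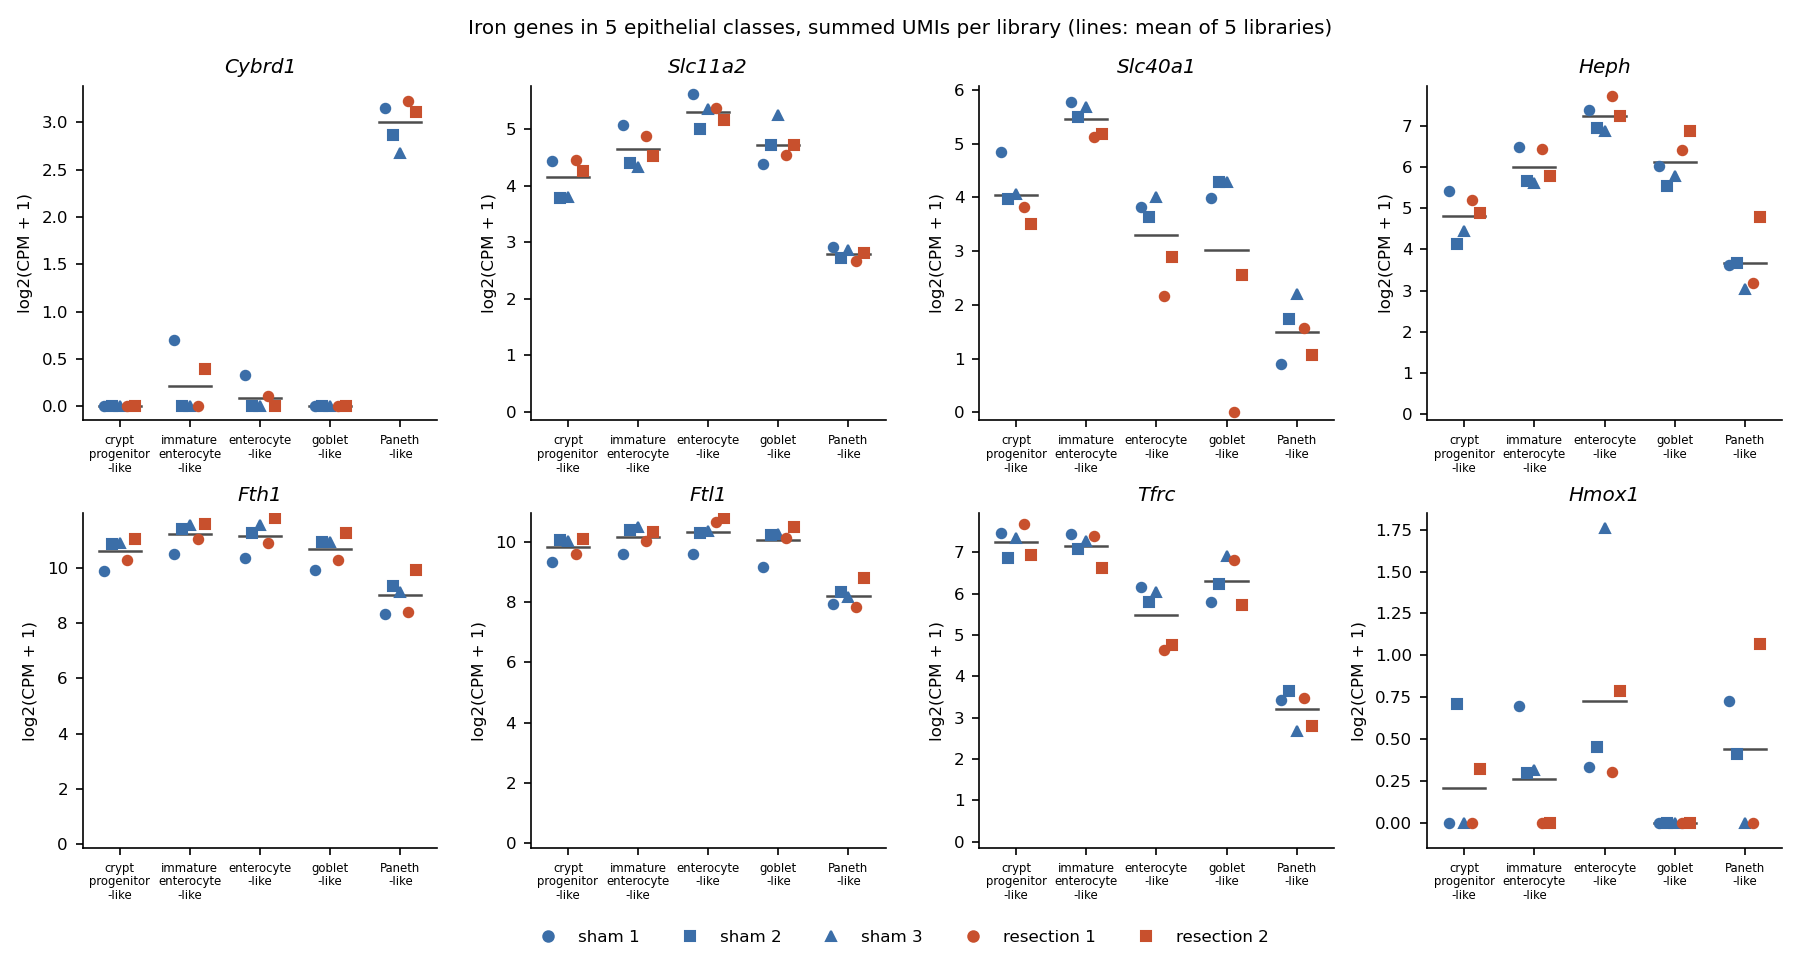
Level of each of the 8 genes on a log2(CPM + 1) scale (y axis) in 5 epithelial classes (x axis). Points are libraries, blue for sham and orange for resection, and lines are means of 5 libraries. Cybrd1 stands above 1 CPM only in Paneth-like cells, Heph is highest in enterocyte-like cells, Slc40a1 in immature enterocyte-like cells and Tfrc in the crypt progenitor-like and immature classes.

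Cybrd1, the brush-border reductase, was near the detection limit in absorptive cells of these ileum libraries, and other parts of the gut were not sampled. Its 5 UMIs in the enterocyte-like and immature enterocyte-like classes compare with 109 in Paneth-like cells, although the enterocyte-like class alone held 61252644 UMIs and the Paneth-like class 14605816. Paneth-like levels were 7.88, 6.31 and 5.38 CPM in sham libraries 1 to 3 and 8.34 and 7.64 in resection libraries 1 and 2. The other epithelial classes reached at most 0.62 CPM in any library, so Paneth-like cells were higher in 5 of 5 libraries with no overlap. Crypt progenitor-like and goblet-like cells gave 0 UMIs, which allows up to 0.24 and 1.02 CPM, the value of 3 counts over the class. Of Paneth-like cells 9.53% had a Cybrd1 UMI, or 2.01% after every cell was thinned to 3000 UMIs, against 0% of thinned T cell-like cells. Before thinning T cell-like cells held 2 Cybrd1 UMIs, a mean of 0.47 CPM with 1.64 CPM in sham 2. The Paneth-like class was deeper, at a median of 9926 UMIs per cell against 5000.

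Slc11a2, the importer, was highest in enterocyte-like cells, at 38.9 ± 6.5 CPM. It reached 26.1 ± 6.60 in goblet-like, 24.6 ± 5.92 in immature enterocyte-like and 17.2 ± 4.11 in crypt progenitor-like cells, neighbours in an order whose ranges overlap. Paneth-like cells, at 5.98 ± 0.47 CPM, lay below all of these without overlap. The thinned share of cells with a UMI was 10.8% (exact binomial 95% interval 10.2 to 11.4) in enterocyte-like and 7.79% (5.35 to 10.9) in T cell-like cells, whose intervals overlap.

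Free or attached enterocyte RNA bears on every such share. T cell-like cells, which should lack enterocyte transcripts, carried enterocyte markers at 53.2% to 75.7% of the enterocyte-like level, and goblet-like cells at 42.8% to 63.0%. Paneth-like cells carried 5.43% to 19.2%, crypt progenitor-like cells 7.72% to 17.3% and immature enterocyte-like cells 13.7% to 25.5%. The levels of the iron genes in T cell-like and goblet-like cells are therefore not read as expression by those cells. Intervals and detection limits here cover counting error only.

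Hmox1 was barely detected in any class. Enterocyte-like cells gave 52 UMIs, at 0.26, 0.37 and 2.38 CPM in the sham and 0.23 and 0.73 in the resection libraries. Sham 3 supplied 28 of them. The gene is not discussed further by class.

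The ferritin chains were present in every class. Fth1, the heavy chain, averaged 2480 ± 687 CPM in immature enterocyte-like, 2465 ± 890 in enterocyte-like, 1740 ± 615 in goblet-like, 1632 ± 499 in crypt progenitor-like and 571 ± 269 in Paneth-like cells. Ranges of neighbouring classes overlapped throughout. Ftl1, the light chain, averaged 1346 ± 384 CPM in enterocyte-like, 1178 ± 271 in immature, 1109 ± 325 in goblet-like and 925 ± 198 in crypt progenitor-like cells. Paneth-like cells, at 305 ± 85.1 CPM, were lower without overlap. Both genes have near-identical copies elsewhere in the genome, so their counts are uncertain to the extent that the counting split reads between copies. One copy in the deposited table, Gm10116, had 0.65% to 5.43% of the Ftl1 count in enterocyte-like cells.

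Heph, the ferroxidase that works with ferroportin, was highest in mature absorptive cells. Enterocyte-like cells averaged 153 ± 38.2 CPM, 2.11 times the mean of goblet-like cells (72.5 ± 28.2) and higher in 5 of 5 libraries without overlap. Immature enterocyte-like cells followed at 65.0 ± 20.1 and were 2.27 times above crypt progenitor-like cells (28.7 ± 10.4), again without overlap. The thinned share with a UMI was 36.5% in enterocyte-like cells (35.5 to 37.4) against 25.1% in T cell-like cells (20.9 to 29.7).

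Slc40a1, the exporter, had its peak earlier than Heph. Immature enterocyte-like cells reached 54.1, 44.2 and 50.3 CPM in the sham and 33.7 and 35.3 in the resection libraries, a mean of 43.5 ± 8.97. This was 2.66 times the crypt progenitor-like mean (16.3 ± 6.70), with no overlap. Goblet-like (11.4 ± 8.45), enterocyte-like (9.94 ± 4.86) and Paneth-like cells (1.97 ± 1.09) followed with overlapping ranges. The thinned share was 11.7% in immature enterocyte-like cells (10.6 to 12.9), above the 2.51% of T cell-like cells (1.21 to 4.57). In mature enterocyte-like cells it was 2.34%, not above that background. T cell-like cells themselves carry much enterocyte RNA, so this comparison cannot decide whether mature cells express Slc40a1.

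Tfrc, the receptor that takes iron from plasma, marked the crypt and the cells leaving it. Crypt progenitor-like cells averaged 156 ± 38.0 CPM and immature enterocyte-like cells 146 ± 30.8, with overlapping ranges. Goblet-like cells followed at 82.7 ± 32.1 and enterocyte-like cells at 48.1 ± 22, and Paneth-like cells, at 8.58 ± 2.73, were lower than enterocyte-like cells without overlap. Thinned shares were 35.4% in crypt progenitor-like and 31.0% in immature cells. In enterocyte-like cells the share was 10.1%, against 12.1% in T cell-like cells (9.03 to 15.7) and 2.51% in Paneth-like cells. Lymphocytes express Tfrc themselves, so T cell-like cells are not free of the gene, and the share in enterocyte-like cells is not read as the share that express it.

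Across 25 points (5 classes in 5 libraries) the genes whose log levels followed each member most closely were found among 6629 genes, as a description only, since points share libraries and depth. Heph ran with Prdx5 (r = 0.99), Mttp, which loads lipid onto lipoproteins, and Aoc1. Slc11a2 ran with Fez2 (r = 0.98) and Gata5, an endodermal transcription factor. Slc40a1 had looser company, led by Pyurf (r = 0.92). Tfrc ran with Gm9493 (r = 0.99) and the mitochondrial ribosomal gene Mrpl57, and Cybrd1 with Mptx2 (r = 0.98), a Paneth cell gene. Among the members, Fth1 and Ftl1 had r = 0.97 and Slc11a2 and Heph r = 0.93.

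Within enterocyte-like cells, position along the villus was approached by a score of villus tip over villus bottom genes that splits the cells of each library into 3 equal groups, called bottom, middle and top. Tfrc was lower at the top than at the bottom in 5 of 5 libraries. Its bottom levels were 88.1, 75.9 and 80.1 CPM in the sham and 38.0 and 39.8 in the resection libraries, and its top levels 49.8, 21.9 and 41.7 against 12.7 and 9.79. Resection lay below sham at the bottom, in the middle and at the top, though edgeR called no member in any of these groups (0%, 0% and 0.0116% of genes called, and 2, 2 and 3 members at an unadjusted p of 0.05 beside 239 of 9198, 620 of 8866 and 842 of 8587 genes). Slc40a1 was also lower at the top in 5 of 5 libraries, with a mean log2 ratio of top over bottom of -1.25 ± 0.48 (SD, n = 5) against -1.38 ± 0.49 for Tfrc. Heph was higher at the top in 5 of 5 libraries, by 0.38 ± 0.10. These gradients inside a class that the score itself orders are descriptions, with no test. Fth1 was lower at the top in 5 of 5 libraries, by a log2 ratio of -0.18 ± 0.14, and Slc11a2 had no common direction (higher at the top in 2 of 5).

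Ftl1 was higher at the top in both resection libraries and near level in the sham libraries. At the bottom it stood at 843, 1270 and 1315 CPM in the sham and 1246 and 1370 in the resection libraries, which overlap. At the top it stood at 742, 1300 and 1362 in the sham and 2159 and 2439 in the resection libraries, which do not. The log2 ratio of top over bottom was -0.19, 0.03 and 0.05 in the sham and 0.79 and 0.83 in the resection libraries. The difference of 0.85 had an exact two-sided permutation p of 0.1, the smallest that 3 against 2 libraries allow, for 1 of 8 genes so compared. An edgeR fit of the same difference over all genes, with library as a term, gave 0.90 ± 0.16 (SE) and an adjusted p of 0.0038, and called 135 of 9444 genes (1.43%). That fit was added after the data were seen. Summed villus tip genes were also higher in the resection libraries, at a mean of 1248 against 793 CPM in the top group, and villus bottom genes lower (26241 against 54868). Their part in the Ftl1 difference was not tested. With a score of tip genes alone the bottom groups no longer overlapped for Ftl1. They stood at 832, 1244 and 1317 CPM in the sham and 1351 and 1531 in the resection libraries. The difference of the log2 ratios of top over bottom was then 0.59.

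**Figure D2:**
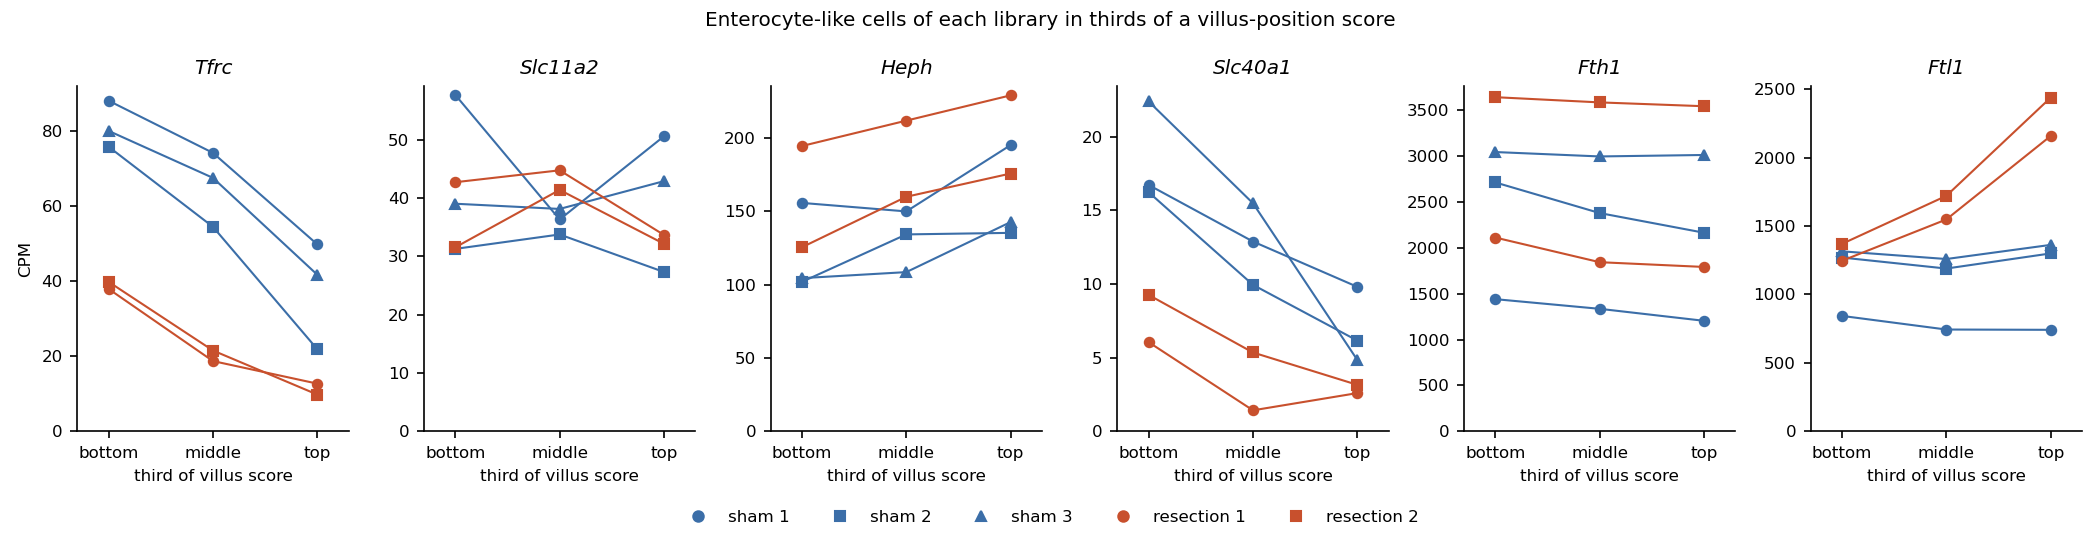
Level in CPM (y axis) of members in the bottom, middle and top groups of enterocyte-like cells by villus score (x axis). Each line is a library, blue for sham and orange for resection. Tfrc and Slc40a1 are lower and Heph is higher at the top in 5 of 5 libraries, while the log2 ratio of top over bottom for Ftl1 is 0.79 and 0.83 in the resection libraries and -0.19 to 0.05 in the sham libraries.

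For resection against sham, levels are CPM scaled by TMM factors (edgeR) so that libraries can be compared, and log2 changes carry the SE of the edgeR quasi-likelihood fit over all genes of a class. In enterocyte-like cells 6 of the 8 genes were tested, and Cybrd1 and Hmox1 had too few counts. None was called at an adjusted p of 0.05, and neither was any of the 10369 genes tested (percent called 0%). Unadjusted p-values were below 0.05 for 2 members and for 551 genes. DESeq2, run without the filter on low counts and so over another set of genes, called 1 member and 72 genes. Both resection libraries lay above the range of the sham libraries for 2 members (Heph, Ftl1) and below it for 2 (Tfrc, Slc40a1), against 10.8% and 8.45% of all genes. In the immature class 0 members lay above the sham range (6.58% of genes) and 1 below (5.02%), and in the crypt class 1 above (5.9%) and 1 below (5%). In the goblet-like class 1 of 5 members lay above (10%) and 0 below (8.21%), and in the Paneth-like class 0 of 6 above (6.58%) and 0 below (6.22%). Over all epithelial cells 1 of 8 lay above (7.92%) and 2 below (6.25%). No member was called in the immature, crypt, goblet-like and Paneth-like classes, where 0%, 0%, 0.0696% and 0.0318% of genes were. None was called over all epithelial cells either (0% of genes). At an unadjusted p of 0.05 edgeR gave 0, 0, 1 and 0 members in those classes, against 157, 131, 233 and 124 of all genes tested. Over all epithelial cells it gave 1 of 8 members and 337 of 11760 genes.

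**Figure D3:**
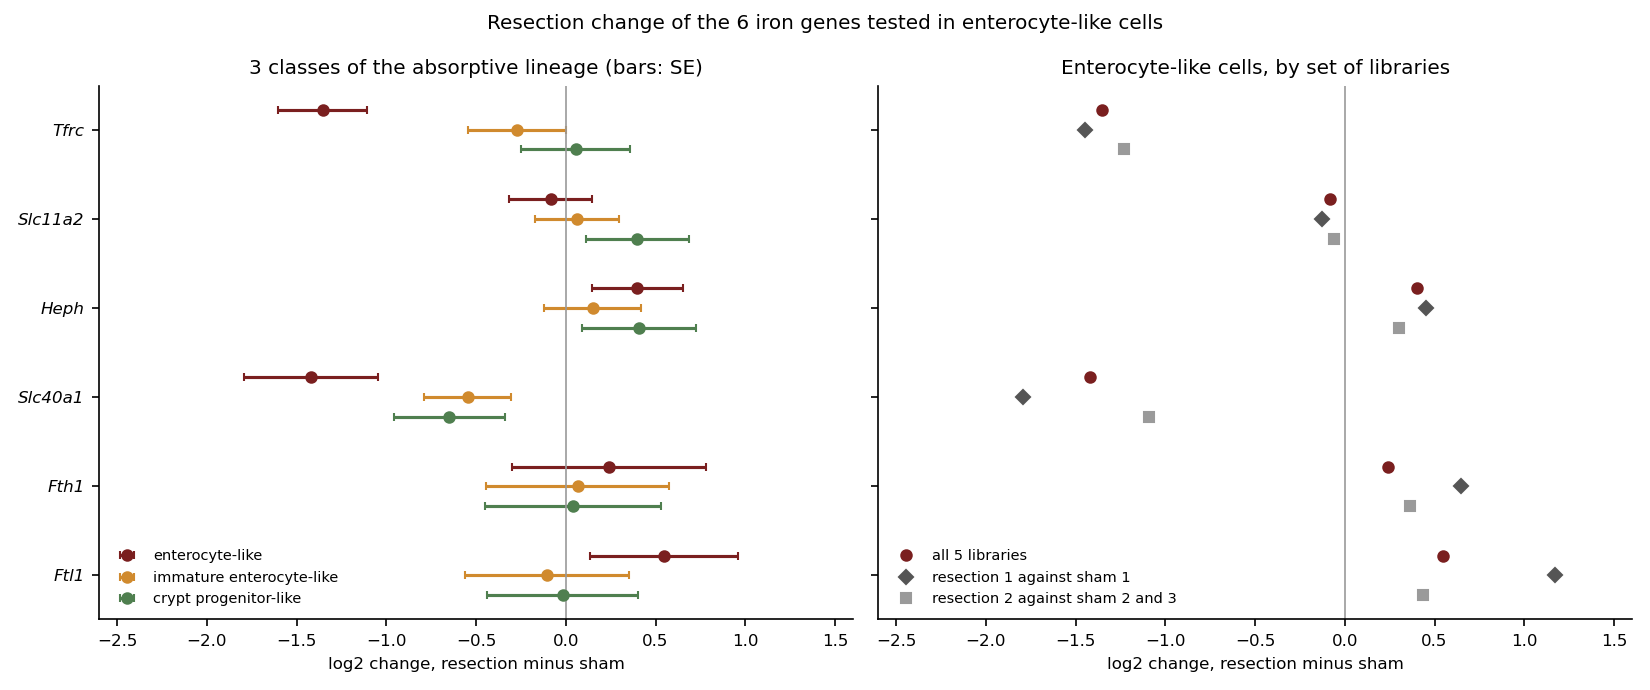
Log2 change of resection against sham (x axis) for the 6 members tested (y axis). The left panel gives 3 classes with bars of 1 SE from the edgeR fit, and the right panel gives enterocyte-like cells for all 5 libraries and for each set of libraries. Tfrc (-1.35) and Slc40a1 (-1.42) lie below 0 in enterocyte-like cells and in both sets, and Tfrc lies near 0 in crypt progenitor-like cells (0.05).

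Tfrc had the lowest p of the members in enterocyte-like cells. It stood at 60.7, 60.1 and 70.5 CPM in the sham and 22.2 and 27.7 in the resection libraries. The groups did not overlap, and the log2 change was -1.35 ± 0.25 (edgeR adjusted p = 0.32). The adjusted p was 0.0020 with DESeq2, 0.011 with no filter on low counts and 0.043 with the library set as a term. The run on sham 1 and resection 1 alone allowed no test. Of the 15 other alternative runs, 4 called Tfrc and 11 did not. The runs that called it also called more genes in all, as given below. The change was -1.45 between sham 1 and resection 1 and -1.23 within the other 3 libraries. Thinned shares of enterocyte-like cells with a Tfrc UMI were 17.6%, 14% and 15.1% in the sham and 6.24% and 6.98% in the resection libraries. T cell-like cells of the same libraries had 76.9, 37.8 and 43.2 unscaled CPM in the sham and 73.2 and 33.0 in the resection libraries (115 UMIs in all), which overlap.

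In the crypt the Tfrc levels of the groups overlapped. Crypt progenitor-like cells had 156, 128 and 172 CPM in the sham and 183 and 133 in the resection libraries, a log2 change of 0.05 ± 0.30 that turned to -0.19 without sham 1 and resection 1. Immature enterocyte-like cells had 147, 152 and 166 against 150 and 107 (-0.27 ± 0.27). The log2 ratio of enterocyte-like over crypt progenitor-like cells was -1.29, -1.07 and -1.31 in the sham and -3.04 and -2.19 in the resection libraries, a difference of -1.39 with an exact two-sided permutation p of 0.1, the smallest possible. Of the 8 members, 3 reached that p: Tfrc, Slc11a2 (difference -0.41) and Ftl1 (0.60). An edgeR fit of that difference over all genes, added after the data were seen, gave -1.36 ± 0.22 with an adjusted p of 0.049 and called 3 of 10568 genes (0.0284%). The adjusted p was 0.082 without sham 1 and 0.47 without resection 1, which ends the call. Against the immature class the same kind of fit gave -1.01 ± 0.19 with an adjusted p of 0.052 and called 9 of 10507 genes (0.0857%).

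Slc40a1 stood below the sham range in the 3 absorptive-lineage classes. Enterocyte-like cells had 11.3, 12.7 and 16.4 CPM in the sham and 3.22 and 6.79 in the resection libraries, a log2 change of -1.42 ± 0.38 (edgeR adjusted p = 0.60). The adjusted p was 0.010 with no filter on low counts, and the log2 change was -2.07 without resection 2 and -0.99 without resection 1. Immature cells, where the gene is clearly above background, had 46.0, 49.9 and 54.3 against 29.9 and 38.8 (-0.55 ± 0.24, edgeR adjusted p = 1.0). Crypt progenitor-like cells had 24.6, 16.4 and 16.7 against 11.7 and 11.4 (-0.65 ± 0.31, edgeR adjusted p = 1.0). Over all epithelial cells the change was -0.82 ± 0.22 (edgeR adjusted p = 1.0), with 0% of 11760 genes called. The smaller change in immature than in enterocyte-like cells differed by -0.86 ± 0.22, at an adjusted edgeR p of 0.085.

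Heph lay above the sham range in enterocyte-like and goblet-like cells on the scaled values. On unscaled CPM the enterocyte-like groups overlap, with sham 1 at 166 and resection 2 at 150. Enterocyte-like cells had 142, 134 and 126 CPM in the sham and 194 and 160 in the resection libraries (0.40 ± 0.25, edgeR adjusted p = 1.0). Goblet-like cells had 59.9, 51.0 and 56.3 against 81.1 and 129 (0.97 ± 0.35, edgeR adjusted p = 0.99). Goblet-like cells carry enterocyte RNA, whose markers were themselves higher in resection libraries, and its part in this value was not tested.

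For the importer and the heavy chain of ferritin the groups overlapped in enterocyte-like cells. Slc11a2 in enterocyte-like cells had 41.1, 34.4 and 43.2 CPM in the sham and 37.5 and 37.0 in the resection libraries (-0.08 ± 0.23). In crypt progenitor-like cells Slc11a2 lay above the sham range on the scaled values, with log2 changes of 0.02 to 0.52 over 16 alternative runs. On unscaled CPM those groups overlap, with sham 1 at 20.8 and resection 2 at 18.3. Fth1 in enterocyte-like cells had 1133, 2718 and 3268 against 1778 and 3830 (0.24 ± 0.54). The low values of Fth1 were those of sham 1 and resection 1, and leaving out single libraries moved its change between -0.42 and 0.69. Ftl1 had 663, 1386 and 1418 against 1493 and 1886 (0.55 ± 0.41, edgeR adjusted p = 1.0), and its change was -0.10 ± 0.46 in immature and -0.02 ± 0.42 in crypt progenitor-like cells. The enterocyte-like change of Ftl1 exceeded the immature one by 0.71 ± 0.14, at an adjusted edgeR p of 0.052.

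Other genes of iron metabolism were taken as 5 lists and read by counts and medians in enterocyte-like cells, where the median log2 change of all genes was -0.02 and edgeR called no gene. Of 21 iron uptake and transport genes 11 were tested, 8 had positive and 3 negative changes, and the median was 0.19. Flvcr1, a heme exporter deposited as Mfsd7b, had 39.1, 48.4 and 28.3 CPM in the sham and 128 and 60.3 in the resection libraries (1.29 ± 0.38, edgeR adjusted p = 0.69). Slc46a1, a folate transporter that was also described as a heme carrier, had 8.84, 4.5 and 8.76 against 16.4 and 10.9. Flvcr2 had 1.55, 1.53 and 0.18 against 2.36 and 3.25. The iron chaperones Pcbp1 and Pcbp2 had log2 changes of -0.28 and 0.00.

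Of 20 iron sensing and regulation genes 14 were tested, 11 with positive and 3 with negative changes and a median of 0.19, and none had an unadjusted p below 0.05. Aco1 and Ireb2 encode the 2 iron regulatory proteins that bind the hairpins printed above, and had log2 changes of 0.42 ± 0.26 and 0.47 ± 0.28. Fbxl5, which directs the breakdown of Ireb2's protein when iron is plentiful, had 68.3, 51.6 and 55.3 CPM against 89.9 and 73.4. Epas1, the hypoxia factor known to drive Slc11a2 and Cybrd1 in gut, had 7.07, 6.34 and 8.30 against 14.3 and 7.96, and Bmp2 had a log2 change of 0.11 ± 0.36.

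All 20 genes of heme and iron-sulfur synthesis were tested, 7 positive and 13 negative with a median of -0.13. Alad, an early enzyme of heme synthesis, had 37.1, 54.0 and 51.0 CPM against 68.3 and 74.5 (0.59 ± 0.26, edgeR adjusted p = 0.95). Cpox (0.47) and Glrx5 (-0.16) had overlapping groups. Of 12 hypoxia targets 11 were tested, 6 positive and 5 negative with a median of 0.15. Adm, a vasodilator peptide, had 56.3, 23.9 and 157 against 7.81 and 18.6 (-2.58 ± 0.81, edgeR adjusted p = 0.75), and it is among the genes that set sham 3 apart. Car9, Pgk1, Ldha and Bnip3l overlapped between groups.

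Of 10 targets of the stress factor Nrf2, which also drives ferritin genes, 9 were tested, 5 positive and 4 negative with a median of 0.02. The quinone reductase Nqo1 had 16.3, 19.2 and 18.6 CPM against 6.45 and 13.8, and the glutathione reductase Gsr had 518, 375 and 345 against 265 and 222. Gclm had 38.0, 83.6 and 75.0 against 90.4 and 112, the opposite direction. Prdx1 overlapped between groups.

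**Figure D4:**
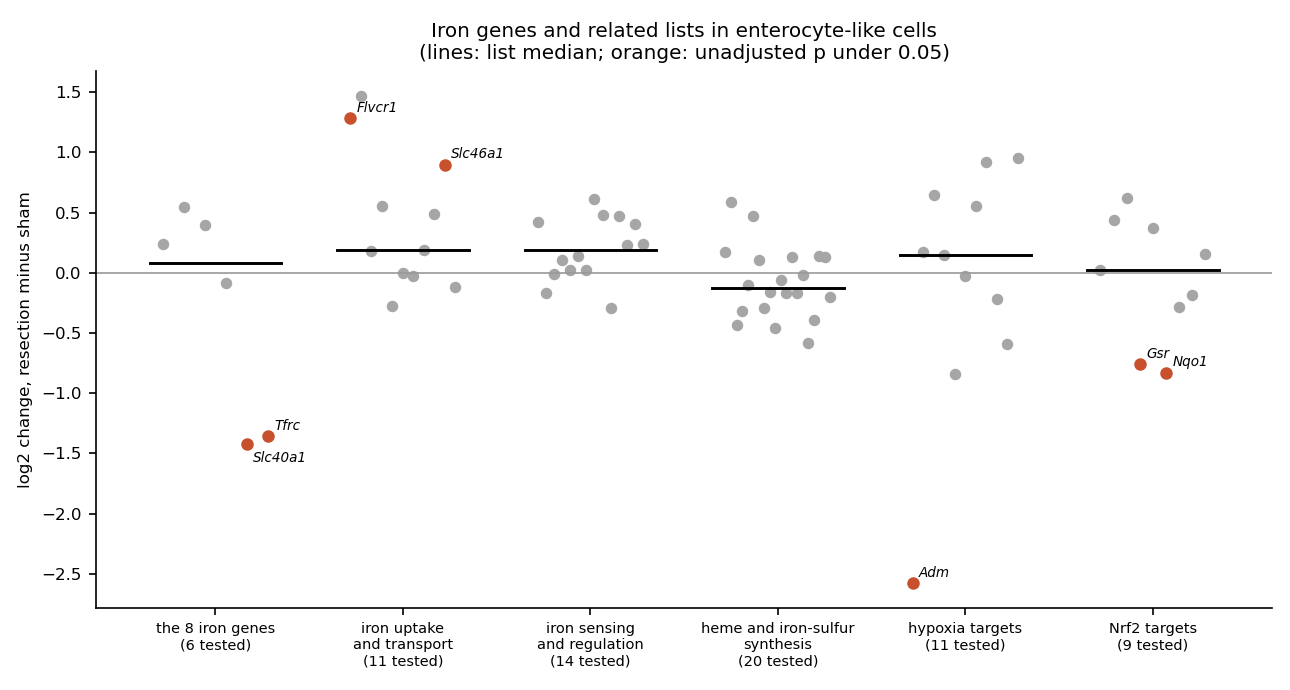
Log2 change of resection against sham in enterocyte-like cells (y axis) for the tested genes of the members and the 5 related lists (x axis). Points are genes, black lines are list medians, and orange points with names have an unadjusted edgeR p under 0.05. Medians of the 5 related lists lie between -0.13 and 0.19, and the median of all genes was -0.02.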

How the data were processed

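The 5 libraries of single epithelial cells from mouse ileum were analysed as the authors deposited them: matrices of UMI counts per gene and cell, made with Cell Ranger per the labels and on GRCm38 (mm10) per the submitters' processing notes. The annotation is not given in the sources used here. The filters asked for 500 genes per cell and allowed a mitochondrial share of 20%. Likely doublets were removed at a rate of 0.8% per 1000 cells, and cells were clustered (2000 variable genes, 30 components, 20 neighbours, Leiden resolution 1) without the 91 iron and related genes. Clusters were named from marker lists. The 8 members and all lists were chosen with earlier results of these data known.

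UMI counts were summed per library and class and fitted with edgeR 4.0.16 (quasi-likelihood, TMM, filterByExpr, Benjamini-Hochberg adjustment over all genes of a class). Alternatives were DESeq2 1.42.0, no filter, RLE scaling, a replicate block, library set, left-out libraries and a looser mitochondrial limit. Named genes of the lists were those with the lowest p and the highest level in enterocyte-like cells; 1 such gene and 1 marker list are not reported here. Counts were also simulated with the same spread for every gene and no library sets. On these the enterocyte-like fit recovered 49% of genes changed by log2 1 and 100% of those changed by 2. It also called 15 unchanged genes. The real libraries fell into sets, so these shares need not hold for them.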

Additional observations from a re-analysis of the deposited data

Results flagged for a closer look

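Tfrc was singled out because its change with resection differed between 2 classes of the same libraries. The difference of enterocyte-like against crypt progenitor-like cells was -1.36 on the log2 scale (edgeR adjusted p = 0.049). The adjusted p was 0.082 without sham 1 and 0.47 without resection 1, and 0.00038 to 0.032 without each other library, so the call rests on those 2 libraries. It was seen as a lower ratio in both resection libraries than in the 3 sham libraries. On data simulated with the same spread for every gene and no library sets, this fit recovered 8% of differences of log2 1 and 82% of log2 2.

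Ftl1 was singled out because its change with resection differed between the top and the bottom of the villus score. The difference was 0.90 on the log2 scale (edgeR adjusted p = 0.0038), with a top over bottom ratio higher in both resection libraries than in the 3 sham libraries. Without a fit, the difference of the ratios was 0.85, and 0.59 with a score of tip genes alone. In the edgeR fit, the score was that of tip over bottom genes. Leaving out each library in turn gave 0.83 to 0.97, with adjusted p from 0.0045 to 0.030.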

How the results depend on the processing

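No log2 change of Tfrc, Slc40a1, Heph, Slc11a2 or Ftl1 in enterocyte-like cells reversed under any alternative run. Of 55 results of all kinds, 13 reversed under some run. The 55 include counts of members called and top over bottom ratios, which were not scored for reversal. That ratio for Hmox1 went from 0.20 to -0.0029 with a score of tip genes alone. In enterocyte-like cells the count of members called rose from 0 to 1 with DESeq2, 1 with the library set as a term and 2 with no filter on low counts, while all genes called rose from 0 to 72, 23 and 227. The cause of these rises was not tested. DESeq2 and the run with no filter started from genes that the main fit leaves out, so their counts are over another set of genes.

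Replicate numbers give only 2 pairs and so do not show pairing. Same-numbered libraries deviated together (r = 0.70 and 0.28 in enterocyte-like cells), and a fit with the replicate block called 1 member and 70 genes there and, in goblet-like cells, Heph (adjusted p = 0.015) with 106 of 6801 genes, against 4 of 5749 without the block. With the block, immature Slc11a2 turned to -0.0174 and Ftl1 to 0.18, and crypt Ftl1 to 0.14.

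Among the other reversals, crypt Heph had a main change of 0.41. In sham 1 against resection 1 alone, immature Slc11a2 was -0.14, Heph -0.0068, Ftl1 0.47 and Tfrc 0.0245, and crypt Heph was -0.21 and Ftl1 0.27. In the other 3 libraries crypt Ftl1 was 0.0628 and Tfrc -0.19. With set as a term immature Ftl1 was 0.13, crypt Ftl1 0.15 and crypt Tfrc -0.0241. With up to 30% mitochondrial counts immature Slc11a2 was -0.0765 and Heph -0.0026, and with no filter crypt Ftl1 was 0.0049. Members called in the difference against the immature class rose from 0 to 1 with RLE scaling and 3 with no filter, while all genes called rose from 9 to 34 and 322.

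Leaving out single libraries moved Fth1 from -0.42 to 0.69 in enterocyte-like, -0.41 to 0.43 in immature and -0.58 to 0.47 in crypt cells, and Ftl1 from -0.45 to 0.18 in immature and -0.46 to 0.32 in crypt cells. It moved immature Heph from -0.0253 to 0.33, immature Slc11a2 from -0.0324 to 0.19 and crypt Tfrc from -0.19 to 0.27. The class difference ranged from -0.11 to 0.054 for Cybrd1, -0.18 to 0.23 for Heph and -0.66 to 0.35 for Hmox1. Members called ranged from 0 to 1 in the difference against the crypt class, with 0 to 119 genes called, and from 0 to 3 against the immature class, with 0 to 353 genes. Depth limits Cybrd1 and Hmox1, which were tested in few classes.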
